A study of Mus musculus with 12 samples.

Results

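The genes described here are 39 interferon receptors, interferon regulatory factors and interferon-stimulated genes, a set of listed symbols matched to the 55471 mouse genes of the deposited count table. By role the set held 4 receptor chains, 7 interferon regulatory factors, 3 cytosolic RNA sensors, 17 antiviral effectors, 5 genes of ISG15 and of regulators of the response, and 3 genes of antigen processing. Expression was measured by sequencing of total RNA from 12 libraries of Ba/F3 cells, a mouse line labelled as pro-B that needs interleukin-3 (IL-3) unless an oncogene replaces it. The SFPQ-ABL1 group had 4 independent lines that carried this ABL1 kinase fusion and were kept off IL-3. The BCR-ABL1 group had 4 independent lines with that fusion, also grown without IL-3. The MSCV group had 4 independent lines with the empty retroviral vector, grown with 0.5 ng/ml mouse IL-3. All lines shared the Ba/F3 parent. Against MSCV the effects of a fusion and of the lack of IL-3 cannot be told apart, while SFPQ-ABL1 and BCR-ABL1 lines were alike in this. The labels give no interferon treatment, and call all 12 samples untreated.

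Type I interferons bind a receptor of the IFNAR1 and IFNAR2 chains, which activates the kinases JAK1 and TYK2. These phosphorylate STAT proteins, which with IRF9 form a factor that binds interferon-stimulated response elements (ISRE) in the promoters of antiviral genes. Interferon gamma binds IFNGR1 and IFNGR2, acts through JAK1 and JAK2, and makes STAT dimers that bind gamma-activated sites (GAS), among them in Irf1 and in genes of peptide processing for MHC class I. Many of these genes also have a basal level without added interferon, which differs between cell types.

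Promoter windows are shown for genes on which the results below turn, so that the elements can be set beside the levels. They are RefSeq sequences of build GRCm38.p6 (mm10), 300 bases each, from 250 bases before the annotated start to 50 bases after it, in the direction of the gene. Capitals mark matches on either strand to the ISRE core, which is GAAA, any 2 bases and GAAA again, or to the GAS core, TTCNNNGAA, and adjacent or overlapping matches run together. Psmb8 and Irf1 are shown for the genes lower in BCR-ABL1 lines, and Tap1 for a window without a match. Oas1a and Oas3 are shown because these related genes moved in opposite directions in SFPQ-ABL1 against BCR-ABL1 lines, and Isg15 for its repeated ISRE cores.
Psmb8 (chr17:34197945-34198244, plus strand): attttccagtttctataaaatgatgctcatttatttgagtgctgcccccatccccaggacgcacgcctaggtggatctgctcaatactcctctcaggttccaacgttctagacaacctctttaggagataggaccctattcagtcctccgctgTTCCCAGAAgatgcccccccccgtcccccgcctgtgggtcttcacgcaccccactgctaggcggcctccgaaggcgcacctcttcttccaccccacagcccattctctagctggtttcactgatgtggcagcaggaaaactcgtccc
Tap1 (chr17:34187306-34187605, plus strand): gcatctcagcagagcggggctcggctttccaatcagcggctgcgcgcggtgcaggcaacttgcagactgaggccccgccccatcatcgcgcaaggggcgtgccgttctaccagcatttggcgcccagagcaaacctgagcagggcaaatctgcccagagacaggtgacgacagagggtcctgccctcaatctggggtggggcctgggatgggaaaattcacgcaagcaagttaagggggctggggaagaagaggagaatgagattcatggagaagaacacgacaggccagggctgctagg
Irf1 (chr11:53769764-53770063, plus strand): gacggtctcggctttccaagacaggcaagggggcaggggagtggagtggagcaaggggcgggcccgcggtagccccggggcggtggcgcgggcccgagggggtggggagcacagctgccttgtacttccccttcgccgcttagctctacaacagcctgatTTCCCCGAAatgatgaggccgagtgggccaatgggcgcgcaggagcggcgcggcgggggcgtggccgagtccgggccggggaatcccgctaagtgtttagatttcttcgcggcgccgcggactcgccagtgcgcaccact
Oas1a (chr5:120907476-120907775, minus strand): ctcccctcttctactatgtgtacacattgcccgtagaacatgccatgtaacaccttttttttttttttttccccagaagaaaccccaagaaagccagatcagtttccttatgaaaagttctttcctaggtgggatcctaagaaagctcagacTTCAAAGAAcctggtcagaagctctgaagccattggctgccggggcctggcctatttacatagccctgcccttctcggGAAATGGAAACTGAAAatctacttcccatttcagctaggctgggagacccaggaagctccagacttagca
Oas3 (chr5:120777610-120777909, minus strand): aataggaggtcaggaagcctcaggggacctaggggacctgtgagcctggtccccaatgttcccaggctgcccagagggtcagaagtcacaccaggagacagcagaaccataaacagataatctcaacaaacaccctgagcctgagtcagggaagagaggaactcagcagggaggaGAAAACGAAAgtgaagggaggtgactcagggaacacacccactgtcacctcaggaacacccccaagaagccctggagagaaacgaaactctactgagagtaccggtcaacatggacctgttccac
Isg15 (chr4:156200769-156201068, minus strand): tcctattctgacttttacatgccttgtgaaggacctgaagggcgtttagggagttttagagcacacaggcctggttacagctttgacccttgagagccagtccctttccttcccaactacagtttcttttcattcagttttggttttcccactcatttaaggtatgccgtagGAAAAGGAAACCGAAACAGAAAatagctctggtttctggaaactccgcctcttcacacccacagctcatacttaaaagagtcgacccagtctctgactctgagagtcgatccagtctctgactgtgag

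The Psmb8 window held a GAS core whose first letter lay 97 bases before the start, and the Irf1 window held one 90 bases before it. The Oas1a window held 2 overlapping ISRE cores, 20 and 14 bases before the start, and a GAS core 98 bases before it. A single ISRE core lay 75 bases before the Oas3 start, and 3 overlapping ISRE cores began 78, 72 and 66 bases before the Isg15 start. The Tap1 and Psmb9 windows shared 275 bases on opposite strands, since these genes are transcribed away from a common region, and neither window held a match. RefSeq windows were found for 32 of the 39 members, 39 windows in all. The ISRE core was in 12 of these windows (30.8%) and in 3.44% of all 32851 windows, and the GAS core was in 12 (30.8%) and in 8.30% of all windows. A match is a description of the letters and not of binding.

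The gene totals ran from 59355018 to 80616227 counts per library, and all levels below are CPM, counts scaled to an equal library total with TMM factors, so that 1 CPM stood for 61.2 to 82.2 counts. Of 55471 genes 17197 passed a filter on low counts and were tested with edgeR's quasi-likelihood test, which gave every adjusted p below (Benjamini-Hochberg over all genes tested, called under 0.05). The deposited exon table, summed per gene as an alternative and called the exon sums below, held fewer counts, 10061439 to 15560875 per library. Errors of levels are SDs over 4 lines and errors of log2 fold changes are standard errors. Counts are reads without molecular identifiers, so limits made from them cover counting error only, and p-values measure the spread between lines of 1 parent. The labelled cell type was checked against a list of 13 pro-B and early B markers, of which Ptprc is not specific to B cells. Ptprc averaged 268 ± 57.5, 338 ± 57.4 and 350.5 ± 58.1 CPM in SFPQ-ABL1, BCR-ABL1 and MSCV lines, and Cd79a and Cd79b were also expressed. The 10 other markers, Pax5, Ebf1, Rag1, Rag2, Il7r and Dntt among them, did not reach 1 CPM in any library. Of 7 macrophage and monocyte markers, 3 passed 1 CPM (Adgre1, Cd68 and Fcgr1), and the sum of the list ran from 26.4 to 142 CPM in SFPQ-ABL1, from 83.4 to 264 CPM in BCR-ABL1 and from 36.6 to 78.0 CPM in MSCV lines. Of the plasmacytoid dendritic cell markers only Tcf4 and of the T and NK cell markers only Cd3g passed 1 CPM in a library, and no fibroblast marker did.

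Per kilobase of exon, a rough scale for setting genes side by side, Bst2 (45.7 CPM per kilobase over all libraries), Psmb8 (37.1) and Trim25 (17.2) had the highest means. The length joins all annotated exons of a gene and can exceed that of a single transcript. Near ranks are therefore uncertain, such as Trim25 above Psmb9 (16.4). Bst2, which tethers budding virions to the cell surface, had 26.04, 27.6, 38.8 and 33.8 CPM in the SFPQ-ABL1 lines, 48.6, 38.4, 65.1 and 51.98 CPM in the BCR-ABL1 lines and 44.8, 42.1, 45.2 and 32.7 CPM in the MSCV lines. Trim25, a ubiquitin ligase of the RIG-I pathway, had 86.1, 97.1, 92.4 and 94.2 CPM in the SFPQ-ABL1 lines, 95.9, 111, 101 and 96.5 CPM in the BCR-ABL1 lines and 109.6, 92.6, 100.5 and 109 CPM in the MSCV lines. Its lines overlapped between all groups, while Bst2 was lowest in 2 SFPQ-ABL1 lines and highest in 3 BCR-ABL1 lines.

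**Figure D1:**
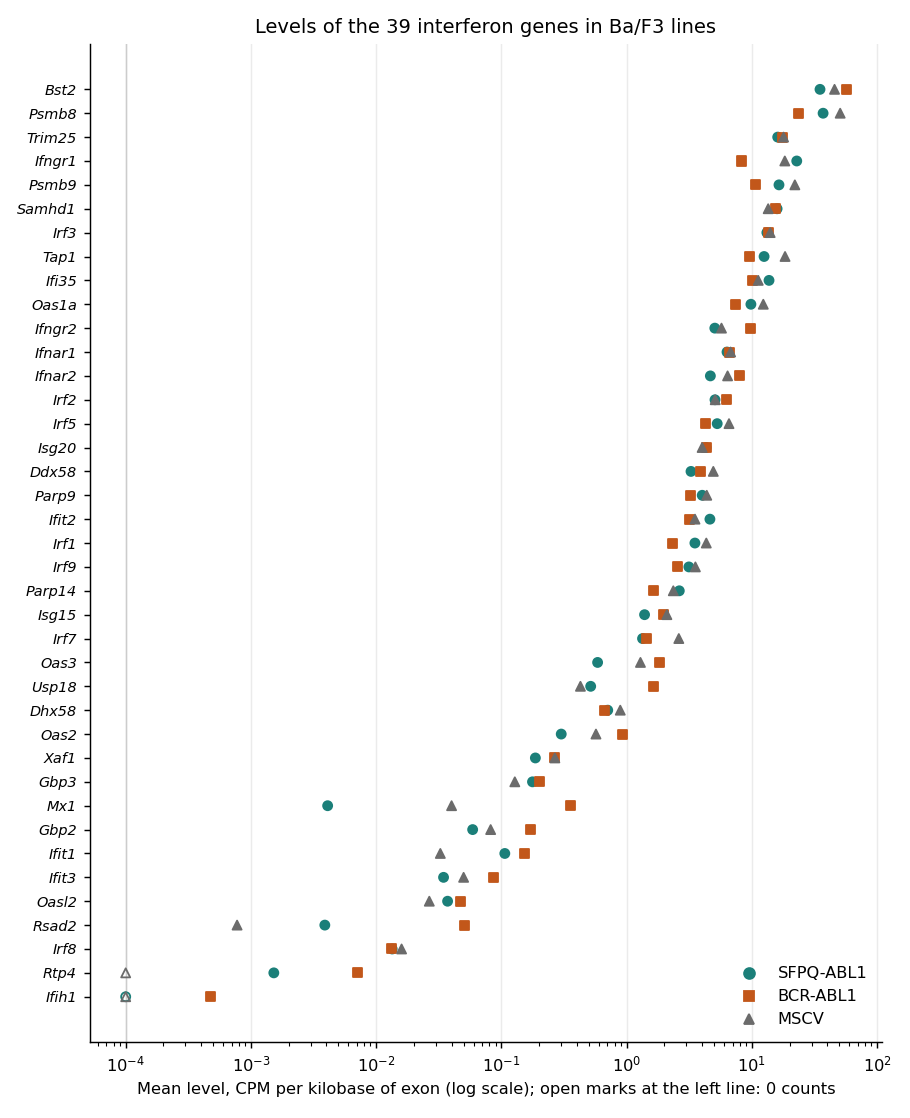
Mean level of each of the 39 genes in CPM per kilobase of exon on a log axis, one row per gene, with 1 mark for the mean of 4 lines in each group. Bst2 and Psmb8 head the order, and Rtp4 and Ifih1, with at most 4 counts in a group, end it.

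The members that did not pass the filter were Irf8, Ifih1, Ifit3, Rsad2 and Rtp4. Ifih1, which encodes the RNA sensor MDA5, had 1 count in the 4 BCR-ABL1 lines together and 0 in the other 8 libraries. A count of 0 allows up to 3 counts in a library, or 0.0365 to 0.0490 CPM. Rtp4 had 1 count in the SFPQ-ABL1 lines, 4 in the BCR-ABL1 lines and 0 in the MSCV lines. Mx1 and Ifit1 passed the filter through the BCR-ABL1 lines, in which they were high, so the counts over the 34 tested members are a description of these and not of all members.

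Against MSCV lines, the BCR-ABL1 lines had lower levels of the immunoproteasome subunits Psmb8 and Psmb9, of Tap1, of the receptor chain Ifngr1 and of 4 interferon regulatory factors, and higher levels of Ifngr2, Ifnar2 and Oas2. In all, 15 of 34 tested members (44.1%) were called, 4 higher and 11 lower, with Mx1, which was tested because of its BCR-ABL1 level, counted among the higher. Over all genes tested 32.1% were called, 15.8% higher and 16.3% lower. The lines of both groups did not overlap for 15 of 34 members and for 31.6% of all genes. The median log2 fold change was -0.041 over the members and -0.0081 over all genes. Of 4 tested macrophage markers only Fcgr1 was called, at 73.5 CPM in BCR-ABL1 and 4.20 CPM in MSCV lines (log2 fold change 4.13 ± 0.50, adjusted p = 9.38e-05). The others had 1.40 for Adgre1 (adjusted p = 0.0916), 0.49 for Cd68 (adjusted p = 0.224) and -1.03 for Csf1r (adjusted p = 0.181). Of the B lineage markers Cd79a (-1.14, adjusted p = 4.76e-05) and Cd79b (-1.27, adjusted p = 3.48e-05) were lower, as was Cd3g of the T cell markers (-3.00, adjusted p = 0.00235), and Vpreb1 and Cd3d, both under 1 CPM, were also called lower. The part of these markers in the differences was not tested.

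Fewer members were called in SFPQ-ABL1 against MSCV lines. Irf7 and Ifnar2 were called, both lower, which is 2 of 34 members (5.88%), against 1.79% of all genes (0.814% higher and 0.977% lower). No member was called higher by edgeR, DESeq2 or limma-voom, and DESeq2 called 9 members and 596 of all 17197 genes lower. An unadjusted p under 0.05 was found for 15 of 34 members and for 3194 of all genes. In BCR-ABL1 against MSCV lines these were 18 members and 7378 genes. The lines of both groups did not overlap for 11 members, 10 of them lower in SFPQ-ABL1, and for 11.2% of all genes. The median log2 fold change was -0.24 over the members and -0.0019 over all genes. Cd79a was lower here too (-0.69, adjusted p = 0.0191), and its part was not tested.

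Between the fusions, the SFPQ-ABL1 lines had higher Ifngr1, Irf1, Irf5, Ifit2, Oas1a, Parp14, Psmb8 and Psmb9 and lower Ifnar2, Ifngr2, Oas2, Oas3, Bst2 and Gbp2. With Mx1, also lower, these were 8 and 7 of 34 members (44.1%), where 26.0% of all genes were called, 13.2% higher and 12.8% lower. The groups did not overlap for 13 members and for 27.9% of all genes. The median was -0.088 over the members and 0.0058 over all genes. The macrophage markers Fcgr1 (-3.08, adjusted p = 0.000743) and Cd68 (-1.12, adjusted p = 0.0156) were lower in SFPQ-ABL1, Cd79a (0.45, adjusted p = 0.0166), Cd79b (0.75, adjusted p = 0.00143) and Cd3g (1.69, adjusted p = 0.0483) were higher, as were Vpreb1 and Cd3d, and their part was not tested here either. The 3 comparisons share libraries, so their values are given side by side and not as independent evidence.

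**Figure D2:**
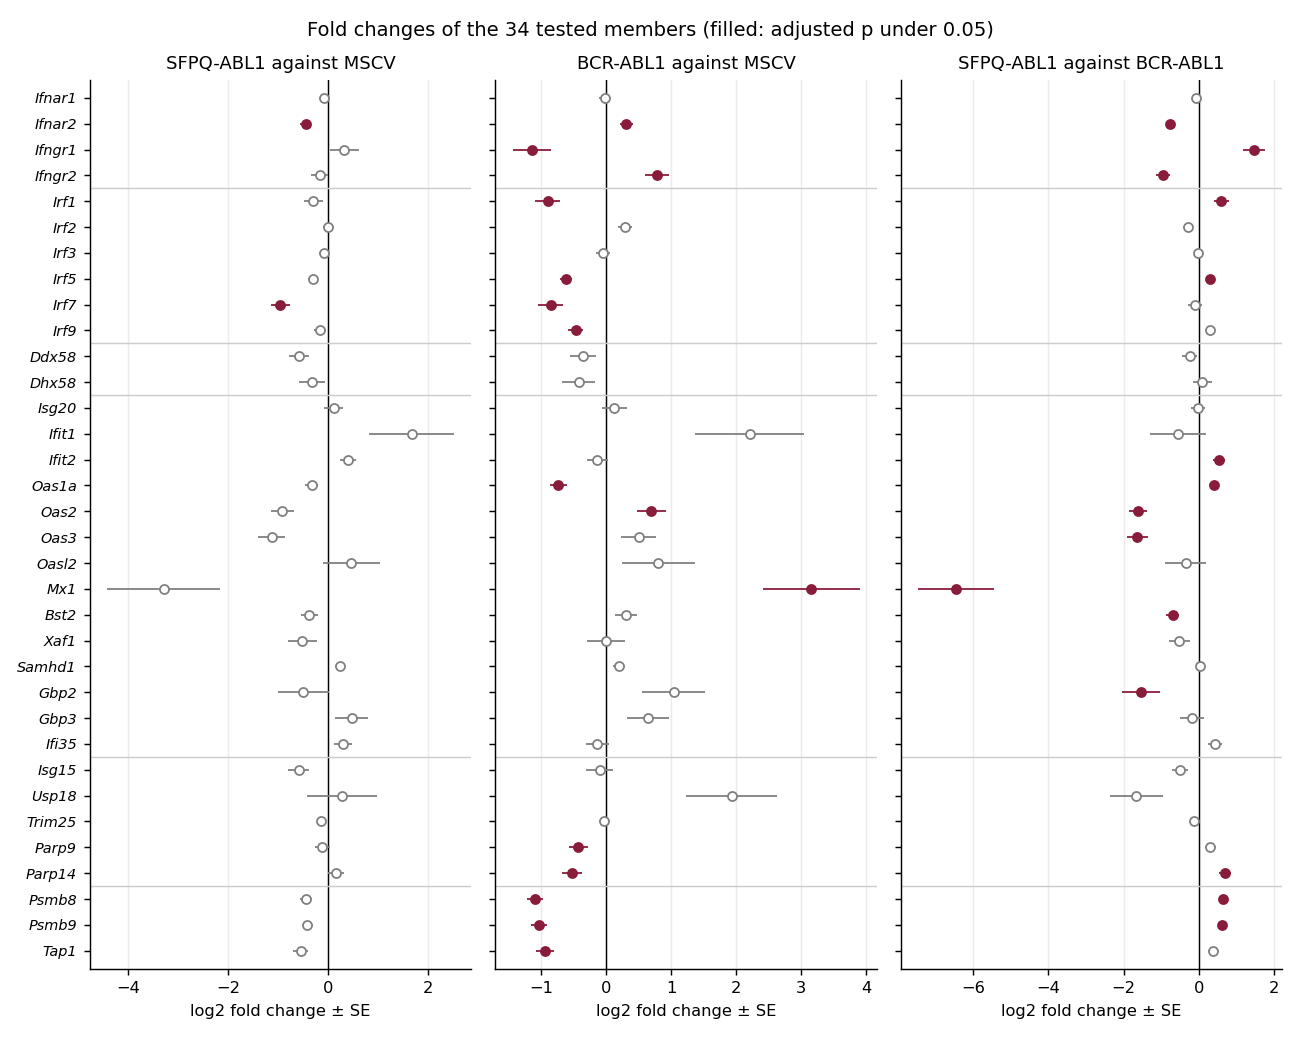
Log2 fold change ± SE of the 34 tested members, grouped by role from receptors at the top to antigen processing at the bottom, in each comparison, with its own axis. Filled marks were called (adjusted p under 0.05): 2 against MSCV for SFPQ-ABL1, 15 for BCR-ABL1, and 15 between the fusions.

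Of the receptor chains, Ifngr1, the ligand-binding chain for interferon gamma, had 96.05, 33.04, 74.7 and 55.7 CPM in the SFPQ-ABL1 lines, 25.2, 23.8, 21.5 and 23.4 CPM in the BCR-ABL1 lines and 27.9, 64.8, 53.8 and 61.9 CPM in the MSCV lines. The 4 BCR-ABL1 lines lay close together and below every other line. The SFPQ-ABL1 and MSCV lines overlapped and were spread widely, with SFPQ-ABL1 line 2 and MSCV line 1 nearest to the BCR-ABL1 lines. Ifngr1 was 2.22-fold lower in BCR-ABL1 than in MSCV lines (log2 fold change -1.15 ± 0.29, adjusted p = 0.00935) and 2.76-fold higher in SFPQ-ABL1 than in BCR-ABL1 lines (log2 fold change 1.47 ± 0.30, adjusted p = 0.0033). Against MSCV, the SFPQ-ABL1 difference was 0.32 ± 0.29 (adjusted p = 0.595). Bulk libraries cannot tell fewer cells with a transcript from less of it per cell.

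Ifngr2, the signalling partner chain, showed the opposite order, with 15.9, 22.3, 18.04 and 19.9 CPM in the SFPQ-ABL1 lines, 29.9, 49.8, 33.97 and 34.2 CPM in the BCR-ABL1 lines and 20.9, 27.7, 20.6 and 16.9 CPM in the MSCV lines. All BCR-ABL1 lines were above all others. The gene was 1.72-fold higher in BCR-ABL1 than in MSCV lines (log2 fold change 0.78 ± 0.18, adjusted p = 0.0051) and 1.94-fold lower in SFPQ-ABL1 than in BCR-ABL1 lines (log2 fold change -0.96 ± 0.18, adjusted p = 0.00222). The value for SFPQ-ABL1 against MSCV lines was -0.18 ± 0.18 (adjusted p = 0.631).

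Ifnar2, the chain that holds the type I interferon ligand tightly, had 13.3, 16.2, 15.99 and 16.5 CPM in the SFPQ-ABL1 lines, 25.4, 23.7, 27.6 and 28.9 CPM in the BCR-ABL1 lines and 22.9, 20.6, 22.1 and 19.6 CPM in the MSCV lines. The groups formed 3 separate ranges, lowest in SFPQ-ABL1, intermediate in MSCV and highest in BCR-ABL1 lines. The fall in SFPQ-ABL1 against BCR-ABL1 lines held in all 20 alternative analyses (log2 fold change -0.77 ± 0.10, adjusted p = 0.000302). The differences from MSCV were smaller, at -0.46 ± 0.10 for SFPQ-ABL1 (adjusted p = 0.0432) and 0.31 ± 0.10 for BCR-ABL1 (adjusted p = 0.0312). The first was lost without any single one of 9 libraries (all but SFPQ-ABL1 line 2 and BCR-ABL1 lines 2 and 4, adjusted p 0.0546 to 0.114), without scaling factors (adjusted p = 0.0541), without the filter on low counts (adjusted p = 0.0618) and in the exon sums (adjusted p = 0.464). The second was lost without BCR-ABL1 line 3 or 4 or MSCV line 2, 3 or 4 (adjusted p 0.0504 to 0.0924), without the filter on low counts (adjusted p = 0.119) and in the exon sums (adjusted p = 0.215). Ifnar1, the other chain of the same receptor, had 34.8, 39.8, 36.5 and 39.2 CPM in the SFPQ-ABL1 lines, 37.5, 44.8, 36.5 and 39.1 CPM in the BCR-ABL1 lines and 37.7, 41.5, 40.5 and 40.8 CPM in the MSCV lines. Its lines overlapped in every comparison, and the log2 fold changes lay between -0.096 and -0.024, with standard errors of 0.085.

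On mm10 the genes Ifnar2 (chr16:91372783-91405589), Ifnar1 (chr16:91485238-91507441) and Ifngr2 (chr16:91547072-91565623) lie on the plus strand of chromosome 16, with Il10rb (chr16:91406164-91425834), a chain of the lambda interferon and IL-10 receptors, between Ifnar2 and Ifnar1. Il10rb averaged 11.6 ± 1.63 CPM in SFPQ-ABL1, 14.4 ± 1.22 CPM in BCR-ABL1 and 14.8 ± 3.69 CPM in MSCV lines and was called in no comparison (adjusted p at least 0.177). The called genes Ifnar2 and Ifngr2 were thus separated by Il10rb and Ifnar1, which were not called. Ifngr1 lies on chromosome 10.

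**Figure D3:**
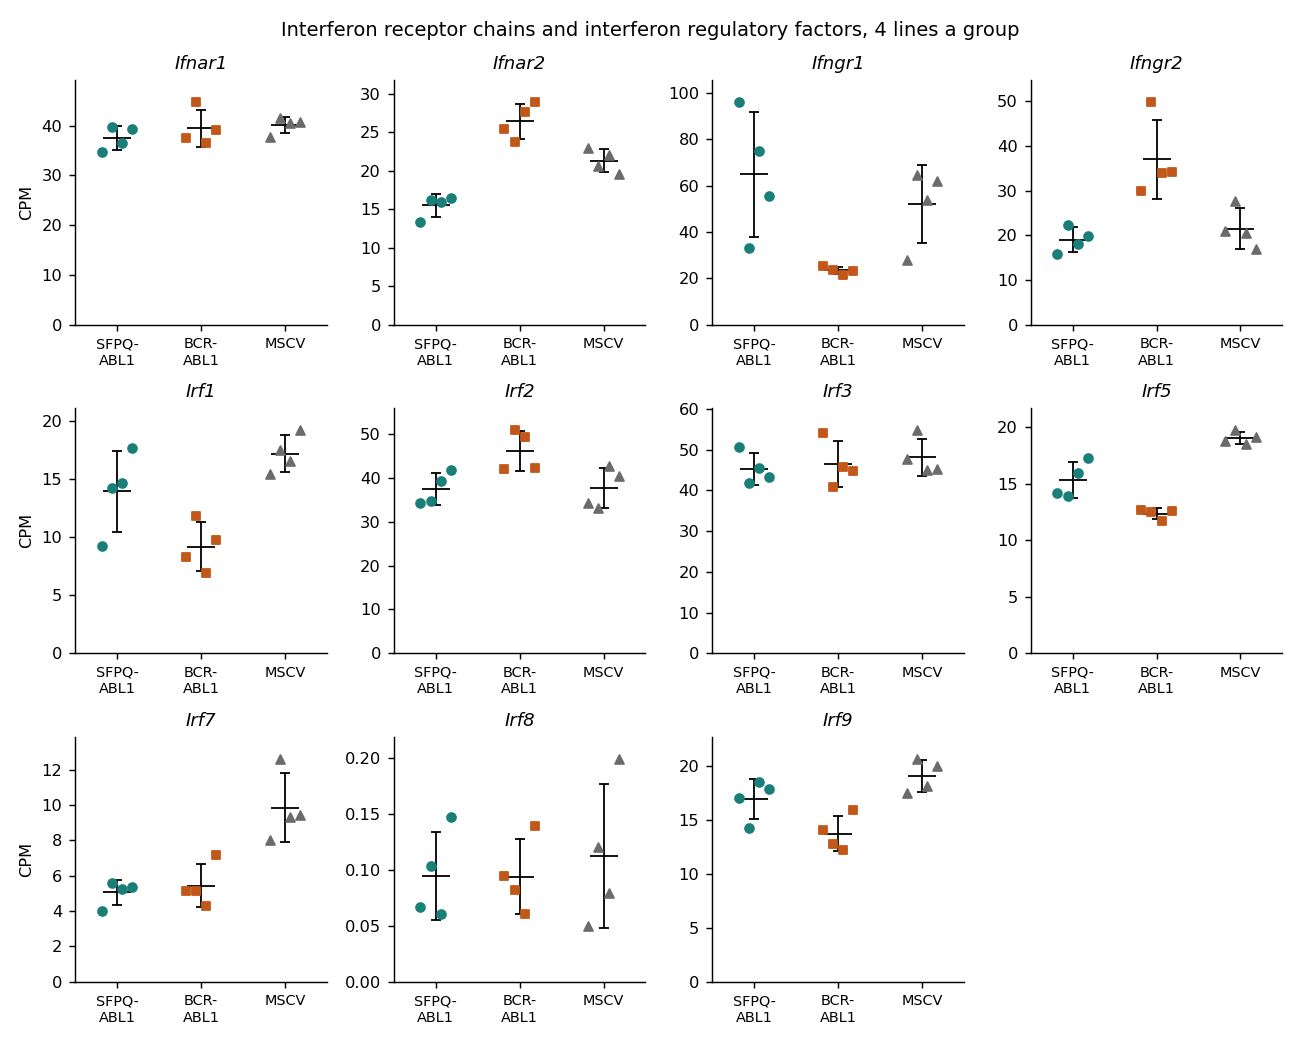
CPM of the 4 receptor chains and 7 interferon regulatory factors on axes that start at 0. Each mark is a line, and bars give the mean ± SD of 4 lines. The BCR-ABL1 lines stand below the others for Ifngr1 and Irf5 and above them for Ifngr2, and both fusion groups stand below MSCV for Irf7.

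Of the regulatory factors, Irf1, which activates interferon and MHC class I processing genes, had 9.25, 14.2, 14.6 and 17.7 CPM in the SFPQ-ABL1 lines, 8.30, 11.9, 6.88 and 9.72 CPM in the BCR-ABL1 lines and 15.4, 17.5, 16.6 and 19.2 CPM in the MSCV lines. All BCR-ABL1 lines were below all MSCV lines (log2 fold change -0.90 ± 0.20, adjusted p = 0.00367), and SFPQ-ABL1 line 1 fell within the BCR-ABL1 range. The rise in SFPQ-ABL1 against BCR-ABL1 lines (log2 fold change 0.60 ± 0.19, adjusted p = 0.0377) was lost without SFPQ-ABL1 line 2, 3 or 4 or BCR-ABL1 line 1, 3 or 4 (adjusted p 0.0619 to 0.114). The difference of SFPQ-ABL1 from MSCV was -0.30 ± 0.19 (adjusted p = 0.428).

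Irf7, which with IRF3 turns on type I interferon genes, had 3.98, 5.60, 5.27 and 5.36 CPM in the SFPQ-ABL1 lines, 5.12, 5.12, 4.31 and 7.17 CPM in the BCR-ABL1 lines and 8.02, 12.6, 9.32 and 9.45 CPM in the MSCV lines. Every line of either fusion was below every MSCV line. The log2 fold change against MSCV was -0.96 ± 0.19 in SFPQ-ABL1 (adjusted p = 0.0295) and -0.86 ± 0.19 in BCR-ABL1 (adjusted p = 0.00402). The SFPQ-ABL1 call was lost without SFPQ-ABL1 line 1, 3 or 4 or MSCV line 2, 3 or 4, with values from -0.996 to -0.816 and adjusted p from 0.0658 to 0.0841. The BCR-ABL1 call held in all 20 alternatives. Between the fusions the difference was -0.10 ± 0.19 (adjusted p = 0.719).

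Irf5, a factor of Toll-like receptor signalling, had 14.2, 13.9, 15.98 and 17.3 CPM in the SFPQ-ABL1 lines, 12.7, 12.5, 11.7 and 12.6 CPM in the BCR-ABL1 lines and 18.8, 19.7, 18.6 and 19.2 CPM in the MSCV lines. Its groups did not overlap in any comparison, with MSCV highest and BCR-ABL1 lowest. The gene fell in BCR-ABL1 against MSCV lines (log2 fold change -0.62 ± 0.093, adjusted p = 0.000358) and rose in SFPQ-ABL1 against BCR-ABL1 lines (log2 fold change 0.31 ± 0.093, adjusted p = 0.0267). That rise was lost without SFPQ-ABL1 line 3 or 4 or BCR-ABL1 line 2 or 3 (adjusted p 0.0545 to 0.0887) and without the filter on low counts (adjusted p = 0.0811). For SFPQ-ABL1 against MSCV the Irf5 value was -0.31 ± 0.093 (adjusted p = 0.102), and DESeq2 called it (adjusted p = 0.0217).

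Irf9, the DNA-binding part of the type I interferon response factor, had 16.98, 14.2, 18.5 and 17.9 CPM in the SFPQ-ABL1 lines, 14.1, 12.8, 12.2 and 15.9 CPM in the BCR-ABL1 lines and 17.5, 20.6, 18.1 and 19.98 CPM in the MSCV lines. The BCR-ABL1 lines were below the MSCV lines (log2 fold change -0.47 ± 0.12, adjusted p = 0.00739) in all 20 alternatives. Against BCR-ABL1 the SFPQ-ABL1 lines had 0.30 ± 0.12 (adjusted p = 0.0724), which passed the threshold without SFPQ-ABL1 line 2 or BCR-ABL1 line 4 (adjusted p 0.0334 and 0.0411) and without scaling factors (adjusted p = 0.0340).

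Irf2, which competes with IRF1 for its sites, had 34.3, 34.7, 39.2 and 41.8 CPM in the SFPQ-ABL1 lines, 42.1, 50.8, 49.3 and 42.3 CPM in the BCR-ABL1 lines and 34.3, 33.2, 42.6 and 40.4 CPM in the MSCV lines. All SFPQ-ABL1 lines were below all BCR-ABL1 lines, at -0.30 ± 0.11 (adjusted p = 0.0607), called without SFPQ-ABL1 line 4 or MSCV line 2 (adjusted p 0.0499 and 0.0440). Against MSCV the BCR-ABL1 value was 0.29 ± 0.11 (adjusted p = 0.056), called without BCR-ABL1 line 1 or MSCV line 3 (adjusted p 0.0492 and 0.0377). DESeq2 called Irf2 both between the fusions (adjusted p = 0.0410) and in BCR-ABL1 against MSCV (adjusted p = 0.0356). With the size factors of DESeq2, edgeR called the latter too (adjusted p = 0.0468). Irf3, a factor activated by the RNA and DNA sensors, had 50.6, 41.7, 45.5 and 43.4 CPM in the SFPQ-ABL1 lines, 54.2, 40.7, 45.8 and 44.8 CPM in the BCR-ABL1 lines and 47.6, 54.7, 45.01 and 45.2 CPM in the MSCV lines. It overlapped in all comparisons, with log2 fold changes from -0.087 to -0.034. Irf8, a factor of myeloid and B cell development, had 0.0670, 0.104, 0.0608 and 0.147 CPM in the SFPQ-ABL1 lines, 0.0943, 0.0822, 0.0607 and 0.139 CPM in the BCR-ABL1 lines and 0.0503, 0.121, 0.0793 and 0.200 CPM in the MSCV lines. That was 27, 26 and 32 counts in the 3 groups, too few for the test.

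Some of these factors overlap other genes on the annotation, and whether reads were assigned by strand is not given in the sources used here. Irf5 overlaps Tnpo3, Irf7 overlaps Phrf1 and Irf3 overlaps Bcl2l12 on the opposite strand, and Irf9 overlaps Rnf31 on the same strand. None of these partners was called in any comparison. In the exon sums Irf5 in BCR-ABL1 against MSCV lines was -0.38 (adjusted p = 0.138) and Irf1 was -0.71 (adjusted p = 0.0955), so both calls were lost there. In SFPQ-ABL1 against BCR-ABL1 lines the exon sums gave 0.21 for Irf5 (adjusted p = 0.462) and 0.40 for Irf1 (adjusted p = 0.380), and in SFPQ-ABL1 against MSCV lines -0.94 for Irf7 (adjusted p = 0.101).

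Of the RNA sensors, Ddx58, which encodes RIG-I, ran from 15.1 to 28.4 CPM in SFPQ-ABL1, from 23.0 to 32.3 CPM in BCR-ABL1 and from 25.2 to 44.6 CPM in MSCV lines. Dhx58, which encodes the regulatory helicase LGP2, ran from 1.78 to 3.11, from 1.75 to 2.73 and from 2.33 to 4.48 CPM in the same order. No sensor was called by edgeR in any comparison, and Ddx58 in SFPQ-ABL1 against MSCV lines (log2 fold change -0.59 ± 0.20, adjusted p = 0.142) was the only one with an unadjusted p under 0.05.

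Among the antiviral effectors, the oligoadenylate synthetases, which make the activator of the ribonuclease RNase L, split between the fusions. Oas1a averaged 18.5 ± 1.24 CPM in SFPQ-ABL1, 13.9 ± 1.60 CPM in BCR-ABL1 and 23.2 ± 4.31 CPM in MSCV lines. It fell in BCR-ABL1 against MSCV lines (log2 fold change -0.74 ± 0.13, adjusted p = 0.00105) in all 20 alternatives, and rose in SFPQ-ABL1 against BCR-ABL1 lines (log2 fold change 0.41 ± 0.13, adjusted p = 0.0338). That rise was lost without SFPQ-ABL1 line 1, 3 or 4 or BCR-ABL1 line 1, 3 or 4 (adjusted p 0.0630 to 0.0972) and in the exon sums (adjusted p = 0.174). Against MSCV the SFPQ-ABL1 value for Oas1a was -0.33 ± 0.13 (adjusted p = 0.201), in the same direction as Oas2 and Oas3 there. Near-identical Oas1 copies lie beside this gene, so reads may be shared among them.

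Oas2 had 1.38, 1.04, 1.52 and 1.41 CPM in the SFPQ-ABL1 lines, 2.98, 4.38, 3.72 and 5.30 CPM in the BCR-ABL1 lines and 1.86, 2.92, 3.15 and 2.19 CPM in the MSCV lines. The SFPQ-ABL1 lines were below all other lines. Oas2 was 3.06-fold lower in SFPQ-ABL1 than in BCR-ABL1 lines (log2 fold change -1.61 ± 0.23, adjusted p = 0.00044). The rise in BCR-ABL1 against MSCV lines (log2 fold change 0.69 ± 0.22, adjusted p = 0.0306) was lost without BCR-ABL1 line 2 or 4 or MSCV line 1 or 4 (adjusted p 0.0690 to 0.0984), without the filter on low counts (adjusted p = 0.0600) and in the exon sums, where the value was 0.85 (adjusted p = 0.199).

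Oas3 had 2.18, 5.78, 3.88 and 4.72 CPM in the SFPQ-ABL1 lines, 9.92, 15.5, 12.99 and 13.1 CPM in the BCR-ABL1 lines and 7.47, 13.1, 8.09 and 7.76 CPM in the MSCV lines. Again every SFPQ-ABL1 line was below every other line, and MSCV line 2 stood within the BCR-ABL1 range. Oas3 was 3.11-fold lower in SFPQ-ABL1 than in BCR-ABL1 lines (log2 fold change -1.64 ± 0.27, adjusted p = 0.00117). Against MSCV lines the SFPQ-ABL1 values for Oas2 (-0.92 ± 0.23, adjusted p = 0.0597) and Oas3 (-1.14 ± 0.27, adjusted p = 0.0538) missed the threshold. Oas3 passed it without SFPQ-ABL1 line 2 (adjusted p 0.0262) and without the filter on low counts (adjusted p = 0.0170), Oas2 passed it without MSCV line 1 (adjusted p 0.0460), and DESeq2 called both (adjusted p = 0.00440 for Oas2 and 0.00167 for Oas3). The 3 synthetases lie on the minus strand of chromosome 5, with Oas2 and Oas3 as neighbours (chr5:120730333-120749853 and chr5:120753098-120777661).

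Mx1, a GTPase that blocks influenza and related viruses and is defective in many inbred mouse strains, was a low gene that entered the test through its BCR-ABL1 level, so its fold changes and p are a description. It had 0, 0.0130, 0 and 0.0490 CPM in the SFPQ-ABL1 lines, 0.418, 0.753, 0.683 and 3.58 CPM in the BCR-ABL1 lines and 0.214, 0.0403, 0.106 and 0.245 CPM in the MSCV lines. In counts that was 0, 1, 0 and 3 in the SFPQ-ABL1 lines, 31, 55, 45 and 231 in the BCR-ABL1 lines and 17, 3, 8 and 16 in the MSCV lines. The BCR-ABL1 lines were above all others, BCR-ABL1 line 4 stood well above its group, and SFPQ-ABL1 line 4 was within the MSCV range. Mx1 was 8.91-fold higher in BCR-ABL1 than in MSCV lines (log2 fold change 3.15 ± 0.75, adjusted p = 0.00604), and 4.07-fold higher without BCR-ABL1 line 4. In SFPQ-ABL1 against BCR-ABL1 lines it was 87.3-fold lower (log2 fold change -6.45 ± 1.01, adjusted p = 0.000794), a ratio that rests on 4 counts and that moved to 39.9-fold without BCR-ABL1 line 4 and to 227-fold without SFPQ-ABL1 line 4. The value for SFPQ-ABL1 against MSCV lines was -3.29 ± 1.13 (adjusted p = 0.146).

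BCR-ABL1 line 4 was also the highest of its group for other low effectors. SFPQ-ABL1 line 4 was likewise the highest of its group for Mx1, Ifit1 and Gbp2, though not for Rsad2 and Ifit3. Rsad2, the radical SAM enzyme viperin, had 0.0268, 0, 0.0243 and 0.0163 CPM in the SFPQ-ABL1 lines, 0.0404, 0.0685, 0.0152 and 0.759 CPM in the BCR-ABL1 lines and 0, 0.0134, 0 and 0 CPM in the MSCV lines, and 49 of its 58 counts in BCR-ABL1 came from line 4. Ifit3, of a family that binds foreign RNA, had 0.496 CPM in BCR-ABL1 line 4 and at most 0.138 CPM in any other library. Gbp2, a GTPase that attacks vacuoles of pathogens, had 0.120, 0.130, 0.0973 and 0.245 CPM in the SFPQ-ABL1 lines, 0.216, 0.356, 0.228 and 0.914 CPM in the BCR-ABL1 lines and 0.151, 0.323, 0.198 and 0.153 CPM in the MSCV lines. It was called lower in SFPQ-ABL1 than in BCR-ABL1 lines (log2 fold change -1.54 ± 0.50, adjusted p = 0.0386), and without BCR-ABL1 line 4 the value was -0.86 (adjusted p = 0.159). That call was also lost without SFPQ-ABL1 line 1, 2 or 3, BCR-ABL1 line 2 or MSCV line 3 (adjusted p 0.0506 to 0.108) and with limma-voom (adjusted p = 0.0618). Gbp2 and Gbp3, and Ifit3 and Ifit3b, are close copies whose reads the counting could divide.

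Ifit1 averaged 0.283 ± 0.336, 0.404 ± 0.341 and 0.0864 ± 0.0368 CPM in SFPQ-ABL1, BCR-ABL1 and MSCV lines. That was 5, 19, 4 and 47 counts, 11, 26, 14 and 58 counts, and 3, 9, 6 and 7 counts, and like Mx1 it would not have been tested without the BCR-ABL1 lines, so what follows is a description. Its BCR-ABL1 lines were above all MSCV lines, at 2.21 ± 0.83 (adjusted p = 0.0593), and the call was made without SFPQ-ABL1 line 1, 3 or 4 or BCR-ABL1 line 1 (adjusted p 0.0255 to 0.0492). Ifit2, by contrast well expressed, had 16.1, 16.9, 20.6 and 18.9 CPM in SFPQ-ABL1 and 14.3, 9.22, 12.8 and 13.8 CPM in BCR-ABL1 lines without overlap (log2 fold change 0.54 ± 0.16, adjusted p = 0.0281). That rise was lost without SFPQ-ABL1 line 3 or 4 or BCR-ABL1 line 2 or 3 (adjusted p 0.0596 to 0.0872) and in the exon sums (adjusted p = 0.187). Ifit2 in the MSCV lines had 12.8, 10.98, 13.96 and 17.4 CPM, which overlapped both fusions.

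Bst2, whose levels are given above, fell in SFPQ-ABL1 against BCR-ABL1 lines (log2 fold change -0.69 ± 0.17, adjusted p = 0.00974), although SFPQ-ABL1 line 3 at 38.8 CPM was above BCR-ABL1 line 2 at 38.4 CPM, and in the exon sums the value was -0.64 (adjusted p = 0.0694). The dNTP hydrolase Samhd1 averaged 145 ± 11.03, 141 ± 17.6 and 123 ± 2.77 CPM in SFPQ-ABL1, BCR-ABL1 and MSCV lines. Samhd1 was not called, though all SFPQ-ABL1 lines were above all MSCV lines (0.24 ± 0.095, adjusted p = 0.207), and against MSCV the BCR-ABL1 lines passed the threshold without BCR-ABL1 line 4 (0.27, adjusted p = 0.0341). The exonuclease gene Isg20, the pro-apoptotic gene Xaf1, Ifi35, Oasl2 and Gbp3 were not called in any comparison. Group means were 8.01, 8.11 and 7.44 CPM for Isg20, 0.875, 1.25 and 1.25 CPM for Xaf1, and 23.6, 17.6 and 19.4 CPM for Ifi35, in SFPQ-ABL1, BCR-ABL1 and MSCV lines. Oasl2 and Gbp3 stayed under 1 CPM in all 12 libraries. Single-library exceptions were Gbp3, called in BCR-ABL1 against MSCV without BCR-ABL1 line 3 (0.86, adjusted p = 0.0498), and Ifi35, called in SFPQ-ABL1 against BCR-ABL1 without SFPQ-ABL1 line 2 (0.53, adjusted p = 0.0494).

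**Figure D4:**
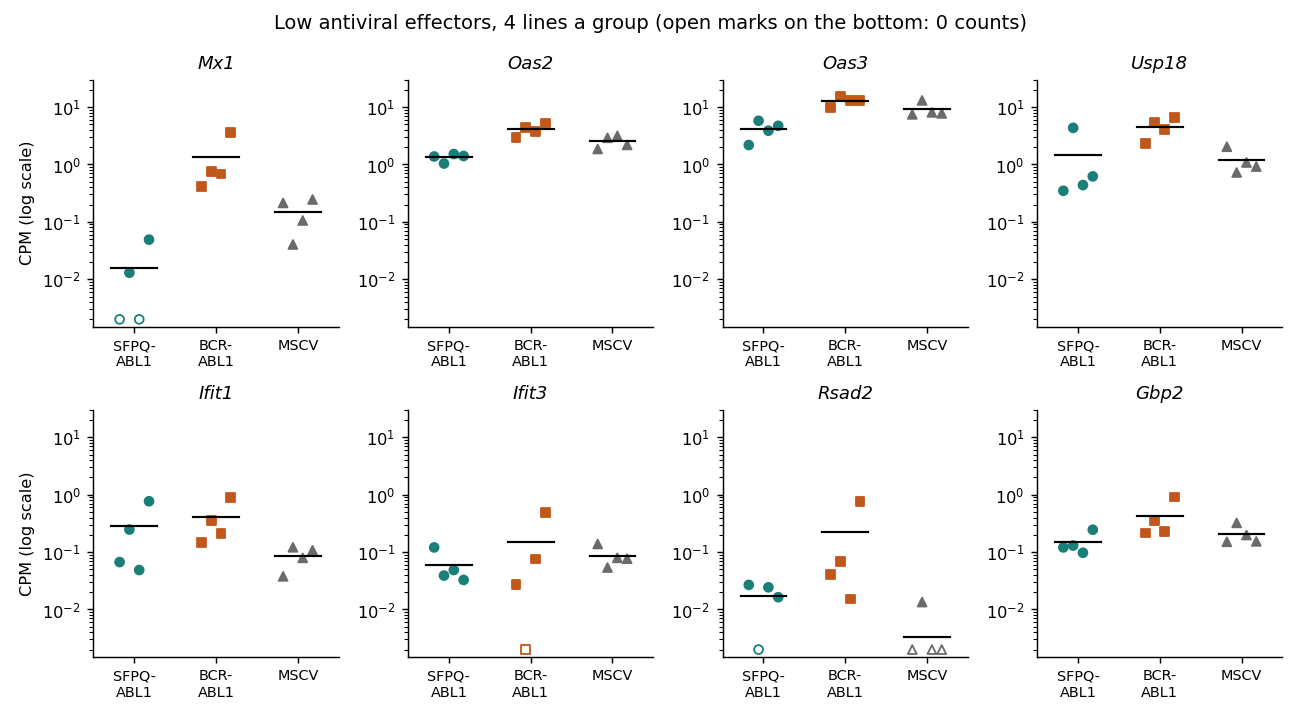
CPM of 8 low effectors on a log axis, 1 mark per line, with a bar at the mean of the 4 lines. BCR-ABL1 line 4, the rightmost square, is the highest of its group for Mx1, Oas2, Usp18, Ifit1, Ifit3, Rsad2 and Gbp2, and the SFPQ-ABL1 lines are lowest for Oas2 and Oas3. Open marks at the bottom are libraries with 0 counts.

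Isg15, a ubiquitin-like protein that is joined to other proteins, was low and averaged 1.05 ± 0.136 CPM in SFPQ-ABL1, 1.48 ± 0.249 CPM in BCR-ABL1 and 1.58 ± 0.373 CPM in MSCV lines. It was not called in any comparison. Its SFPQ-ABL1 lines were below all MSCV lines (-0.59 ± 0.21, adjusted p = 0.154). Usp18, the protease that removes ISG15 and restrains the type I receptor, had 0.348, 4.35, 0.438 and 0.621 CPM in the SFPQ-ABL1 lines, 2.30, 5.40, 4.02 and 6.50 CPM in the BCR-ABL1 lines and 2.04, 0.726, 1.08 and 0.921 CPM in the MSCV lines. SFPQ-ABL1 line 2 stood apart from the other 3 lines of its group. With all lines Usp18 in SFPQ-ABL1 against BCR-ABL1 was -1.66 ± 0.70 (adjusted p = 0.097), and without SFPQ-ABL1 line 2 it was -3.28 (adjusted p = 0.000471). With limma-voom and all lines it was -2.37 (adjusted p = 0.0129). Against MSCV it was 0.27 ± 0.69 with all SFPQ-ABL1 lines (adjusted p = 0.87) and -1.36 without line 2 (adjusted p = 0.117). In BCR-ABL1 against MSCV lines it was 1.93 ± 0.70 (adjusted p = 0.0517), with no overlap of the lines, and was called without SFPQ-ABL1 line 1, 2 or 3, BCR-ABL1 line 1 or MSCV line 1 (adjusted p 0.00217 to 0.0460). It was also called with DESeq2 (adjusted p = 0.0377), with limma-voom (adjusted p = 0.0216), in the fit of the 8 libraries compared (adjusted p = 0.00429), without the filter on low counts (adjusted p = 0.0254) and in the exon sums (adjusted p = 0.0110).

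Parp14, an ADP-ribosyltransferase of the interferon response, averaged 24.5 ± 5.41 CPM in SFPQ-ABL1, 15.2 ± 2.64 CPM in BCR-ABL1 and 21.9 ± 1.21 CPM in MSCV lines. It was higher in SFPQ-ABL1 than in BCR-ABL1 lines in all 20 alternatives (log2 fold change 0.69 ± 0.16, adjusted p = 0.00731). It was lower in BCR-ABL1 than in MSCV lines (log2 fold change -0.53 ± 0.16, adjusted p = 0.0221), a call lost without BCR-ABL1 line 3 or 4 or MSCV line 4 (adjusted p 0.0560 to 0.0694). Parp9, which works with the ubiquitin ligase DTX3L, averaged 19.5 ± 2.66, 15.8 ± 1.97 and 21.2 ± 3.63 CPM in the same order and was called lower in BCR-ABL1 than in MSCV lines (log2 fold change -0.43 ± 0.15, adjusted p = 0.0392). That call was lost without BCR-ABL1 line 1, 3 or 4 or MSCV line 2, 3 or 4 (adjusted p 0.0606 to 0.108), with limma-voom (adjusted p = 0.0514) and in the exon sums (adjusted p = 0.494). Dtx3l overlaps Parp9 on the opposite strand and had -0.49 ± 0.14 in the same comparison (adjusted p = 0.0164). Trim25 was not called, with log2 fold changes from -0.16 to -0.028.

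All 3 genes of antigen processing were called lower in BCR-ABL1 than in MSCV lines, as were 16.3% of all genes. Psmb8, a catalytic subunit of the immunoproteasome, had 107, 126, 141 and 125 CPM in the SFPQ-ABL1 lines, 92.7, 79.5, 84.6 and 62.4 CPM in the BCR-ABL1 lines and 153, 184, 181 and 167 CPM in the MSCV lines. Psmb9, a further catalytic subunit, had 53.6, 58.4, 66.8 and 61.9 CPM in the SFPQ-ABL1 lines, 46.9, 37.9, 41.4 and 30.9 CPM in the BCR-ABL1 lines and 77.7, 79.8, 85.4 and 79.3 CPM in the MSCV lines. For both genes the 3 groups did not overlap, with MSCV highest, SFPQ-ABL1 intermediate and BCR-ABL1 lowest. Tap1, a chain of the peptide transporter into the endoplasmic reticulum, had 50.9, 68.5, 85.04 and 69.3 CPM in the SFPQ-ABL1 lines, 60.7, 52.4, 49.5 and 46.8 CPM in the BCR-ABL1 lines and 88.7, 95.7, 115 and 103 CPM in the MSCV lines. Tap1 was also highest in all MSCV lines, while the lowest SFPQ-ABL1 line, line 1, fell within the BCR-ABL1 range.

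In BCR-ABL1 against MSCV lines Psmb8 was 2.15-fold lower (log2 fold change -1.10 ± 0.12, adjusted p = 5.45e-05), Psmb9 2.05-fold lower (log2 fold change -1.04 ± 0.12, adjusted p = 5.45e-05) and Tap1 1.92-fold lower (log2 fold change -0.94 ± 0.14, adjusted p = 0.000374). These calls held in all 20 alternatives. In SFPQ-ABL1 against MSCV lines the differences were -0.45 ± 0.12, -0.42 ± 0.11 and -0.56 ± 0.14 for Psmb8, Psmb9 and Tap1, with adjusted p of 0.0772, 0.0804 and 0.0649. DESeq2 called all 3, edgeR called Psmb8 and Psmb9 without BCR-ABL1 line 4 (adjusted p 0.0472 and 0.0457) and Tap1 without SFPQ-ABL1 line 3 (adjusted p 0.0461). Against BCR-ABL1, the SFPQ-ABL1 lines had higher Psmb8 (log2 fold change 0.65 ± 0.12, adjusted p = 0.00232) and Psmb9 (log2 fold change 0.62 ± 0.12, adjusted p = 0.00222), in all 20 alternatives. Tap1 missed the threshold there (log2 fold change 0.39 ± 0.14, adjusted p = 0.0605) and passed it without SFPQ-ABL1 line 1 or BCR-ABL1 line 1 (adjusted p 0.0118 and 0.0395). It also passed with DESeq2 (adjusted p = 0.0469) and without scaling factors (adjusted p = 0.0338).

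Psmb9 (chr17:34181987-34187764, minus strand), Tap1 (chr17:34187553-34197225) and Psmb8 (chr17:34197721-34201454) lie next to each other on mm10 chromosome 17, followed by Tap2 (chr17:34203527-34216321), the other transporter chain. The ends of the annotated Psmb9 and Tap1 genes at which they start overlap, on opposite strands. Tap2 also fell in BCR-ABL1 against MSCV lines (log2 fold change -1.29 ± 0.16, adjusted p = 0.00011) and rose in SFPQ-ABL1 against BCR-ABL1 lines (log2 fold change 0.70 ± 0.16, adjusted p = 0.00673). Of the windows shown at the start, that of Psmb8 holds a GAS core and that shared by Psmb9 and Tap1 holds no match.

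**Figure D5:**
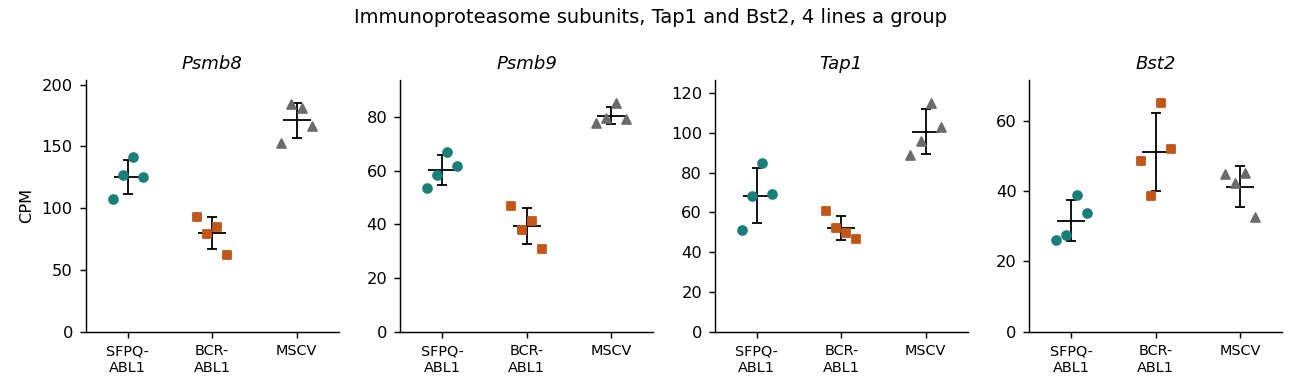
CPM of Psmb8, Psmb9, Tap1 and Bst2 in each line on axes that start at 0, with bars for the mean ± SD of 4 lines. For Psmb8 and Psmb9 the SFPQ-ABL1 lines lie between the BCR-ABL1 and MSCV lines without overlap. The Bst2 mean is highest in BCR-ABL1, intermediate in MSCV and lowest in SFPQ-ABL1, and its groups overlap.

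By promoter letters, the 9 tested members with an ISRE core window had median log2 fold changes of 0.31 in BCR-ABL1 against MSCV, -0.39 in SFPQ-ABL1 against MSCV and -0.49 in SFPQ-ABL1 against BCR-ABL1. The 19 tested members whose windows lacked it had medians of -0.14, -0.17 and 0.040. Called among the 9 were Oas1a, lower in BCR-ABL1 than in MSCV and higher in SFPQ-ABL1 than in BCR-ABL1 lines, and Oas3, Bst2 and Gbp2, lower in SFPQ-ABL1 than in BCR-ABL1 lines. The 11 members with a GAS core had medians of -0.024, -0.096 and 0.040, and the 17 without it -0.054, -0.31 and -0.18. Ifit1, among the 9 with an ISRE core, was tested because of its BCR-ABL1 level, so these medians are a description. Over all genes tested the medians were -0.0081, -0.0019 and 0.0058, and 32.1%, 1.79% and 26.0% of genes were called, in the same order. No test of these groups was made.

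The lines of a group differed in their ranks over the members. These ranks were not counted over all genes, so a shift of a whole library cannot be told from a trait of the members. SFPQ-ABL1 line 1 had the lowest level of its group for 20 of the 34 tested members. SFPQ-ABL1 line 4 had the highest for 16 and the lowest for 0. Among MSCV lines, line 1 was lowest for 18 and line 2 highest for 14. In the BCR-ABL1 group lines 2 and 4 were each highest for 11 and lines 1 and 3 each lowest for 10. BCR-ABL1 line 4 was highest for 7 of 14 effectors and lowest for all 3 genes of antigen processing. Line 4 was also highest for 7 of 14 effectors in the SFPQ-ABL1 group and for 6 of 14 in the MSCV group. The 3 macrophage markers over 1 CPM were also uneven, and Fcgr1 had 5.16, 7.66, 5.13 and 17.00 CPM in the SFPQ-ABL1 lines, 31.1, 69.6, 76.6 and 117 CPM in the BCR-ABL1 lines and 6.13, 2.27, 3.20 and 5.19 CPM in the MSCV lines. BCR-ABL1 line 4 was the highest for Fcgr1, while Adgre1 and Cd68 were highest in BCR-ABL1 line 2 (155 and 39.2 CPM, against 73.7 and 33.7 CPM in line 4). The part of these markers in the effector levels was not tested.

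Beyond the 39 members, 119 other genes of the pathway were listed by role, and 83 were tested. Of 10 interferon genes, 9 had 0 counts in all 12 libraries, and Ifnb1 had 1 count in SFPQ-ABL1, 4 in BCR-ABL1 and 3 in MSCV lines. In BCR-ABL1 against MSCV lines 39 of 83 were called (47.0%, against 32.1% of all genes), 11 higher and 28 lower, with a median of -0.21. In SFPQ-ABL1 against MSCV lines 4 of 83 were called (4.82%, against 1.79% of all genes), 1 higher and 3 lower. In SFPQ-ABL1 against BCR-ABL1 lines 29 were called (34.9%, against 26.0% of all genes), 20 higher and 9 lower, with a median of 0.22.

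The list of receptor kinases, STAT factors and lambda receptor chains had 3 of 6 tested genes lower in BCR-ABL1 than in MSCV lines. Stat2, a transcription factor of the type I response, averaged 34.5 ± 4.55 CPM in BCR-ABL1 and 58.3 ± 4.04 CPM in MSCV lines (log2 fold change -0.76 ± 0.12, adjusted p = 0.000388). The receptor kinases Tyk2 (-0.53 ± 0.092, adjusted p = 0.00102) and Jak2 (-1.03 ± 0.26, adjusted p = 0.00809) fell with it. In SFPQ-ABL1 lines Stat2 (0.67 ± 0.11, adjusted p = 0.00128) and Tyk2 (0.34 ± 0.092, adjusted p = 0.0175) were higher than in BCR-ABL1 lines, and the call of Tyk2 was lost without SFPQ-ABL1 line 3 or BCR-ABL1 line 4 (adjusted p 0.0588 and 0.0523) and in the exon sums (adjusted p = 0.0593). Against MSCV none of the 6 was called in SFPQ-ABL1 by edgeR, where 1.79% of all genes were. None had an unadjusted p under 0.05, which 3194 of all 17197 genes had.

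Of 7 tested inhibitors of the pathway, the feedback inhibitor of JAK kinases Socs1 averaged 18.8 ± 6.87 CPM in SFPQ-ABL1, 14.7 ± 4.34 CPM in BCR-ABL1 and 5.59 ± 2.40 CPM in MSCV lines. It was the only pathway gene called higher in SFPQ-ABL1 against MSCV (log2 fold change 1.75 ± 0.33, adjusted p = 0.0266) and was also higher in BCR-ABL1 (log2 fold change 1.39 ± 0.33, adjusted p = 0.00643). The SFPQ-ABL1 call was lost without SFPQ-ABL1 line 1, 3 or 4 or MSCV line 2, 3 or 4, with values from 1.59 to 1.76 (adjusted p 0.0574 to 0.0842). The phosphatase Ptpn6 was 3.58-fold lower in BCR-ABL1 than in MSCV lines (adjusted p = 4.64e-05) and 2.97-fold higher in SFPQ-ABL1 than in BCR-ABL1 lines (adjusted p = 0.00023). Ptpn2, a phosphatase of JAK and STAT proteins, was higher in BCR-ABL1 than in MSCV (0.76 ± 0.19, adjusted p = 0.00804) and lower in SFPQ-ABL1 than in BCR-ABL1 lines (-0.63 ± 0.19, adjusted p = 0.0265), the second call lost without SFPQ-ABL1 line 1 or 3 or BCR-ABL1 line 2, 3 or 4 (adjusted p 0.0502 to 0.0680).

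The further interferon-stimulated antiviral genes had 22 of 35 called in BCR-ABL1 against MSCV lines (62.9%, against 32.1% of all genes), 5 higher and 17 lower. Ifitm1, which encodes a membrane protein that restricts viral entry, averaged 5181 ± 935 CPM in SFPQ-ABL1, 1927 ± 753 CPM in BCR-ABL1 and 6689 ± 734 CPM in MSCV lines, and was 3.47-fold lower in BCR-ABL1 than in MSCV (adjusted p = 0.000133) and 2.69-fold higher in SFPQ-ABL1 than in BCR-ABL1 lines (adjusted p = 0.000913). Ifitm2 (-1.38 ± 0.14, adjusted p = 3.03e-05) and Ly6e (-1.18 ± 0.15, adjusted p = 0.000103) also fell in BCR-ABL1 against MSCV. The antiviral RNA-binding protein gene Zc3hav1 went the other way, higher in BCR-ABL1 than in MSCV (0.82 ± 0.10, adjusted p = 0.000102) and lower in SFPQ-ABL1 than in BCR-ABL1 lines (-0.90 ± 0.10, adjusted p = 0.000134). Between the fusions 15 of the 35 were called (42.9%, against 26.0% of all genes), 10 higher and 5 lower in SFPQ-ABL1. Ifitm2 (0.97) and Tdrd7 (1.12) were among the higher. Against MSCV, Shisa5 was the only gene of the 35 called in SFPQ-ABL1 (log2 fold change -0.53 ± 0.11, adjusted p = 0.0351), and this call held only without SFPQ-ABL1 line 2 or BCR-ABL1 line 1, 2 or 4 among the libraries left out in turn (adjusted p 0.0556 to 0.102 without each of the other 8).

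The other antigen processing genes had 5 of 10 tested lower and 1 higher in BCR-ABL1 than in MSCV lines (60.0%, against 32.1% of all genes). Tapbp, the chaperone that links TAP to MHC class I, averaged 80.2 ± 9.08, 50.4 ± 12.1 and 126 ± 10.1 CPM in SFPQ-ABL1, BCR-ABL1 and MSCV lines. It was lower than in MSCV in BCR-ABL1 (log2 fold change -1.32 ± 0.15, adjusted p = 5.51e-05) and in SFPQ-ABL1 (log2 fold change -0.65 ± 0.15, adjusted p = 0.0435). B2m, the light chain of MHC class I, also fell in BCR-ABL1 (-0.69 ± 0.12, adjusted p = 0.000975) and in SFPQ-ABL1 (-0.67 ± 0.12, adjusted p = 0.0205), and the proteasome activator gene Psme1 fell in BCR-ABL1 (-0.79 ± 0.11, adjusted p = 0.000226). The SFPQ-ABL1 call of B2m was lost without SFPQ-ABL1 line 1 or 4 or MSCV line 2 or 3 (adjusted p 0.0520 to 0.0627), and that of Tapbp without each library other than BCR-ABL1 lines 2 and 4 (adjusted p 0.0531 to 0.120). Nlrc5, the transactivator of MHC class I genes, was the gene that rose in BCR-ABL1 (log2 fold change 1.70 ± 0.37, adjusted p = 0.0038), and it averaged 0.123 ± 0.0555, 0.802 ± 0.264 and 0.247 ± 0.101 CPM in SFPQ-ABL1, BCR-ABL1 and MSCV lines. In SFPQ-ABL1 against BCR-ABL1 lines Nlrc5 was 6.38-fold lower (adjusted p = 0.000569), while Psme1 (0.68) and Tapbp (0.67) were among 4 higher genes.

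Of the 11 tested genes of nucleic acid sensing, 2 rose and 1 fell in BCR-ABL1 against MSCV lines (27.3%, against 32.1% of all genes). The cytosolic DNA sensor Aim2 (log2 fold change 0.51 ± 0.11, adjusted p = 0.00399) and the adaptor Traf3 (0.37 ± 0.092, adjusted p = 0.00808) were higher, and the kinase Ikbke (-0.50 ± 0.16, adjusted p = 0.0327) was lower, a call lost without BCR-ABL1 line 1, 3 or 4 or MSCV line 2, 3 or 4 (adjusted p 0.0639 to 0.0932) and in the exon sums (adjusted p = 0.215). Aim2 was lower in SFPQ-ABL1 than in BCR-ABL1 lines (-0.50 ± 0.11, adjusted p = 0.00602) and Eif2ak2, the RNA-activated kinase PKR, was higher (0.33 ± 0.097, adjusted p = 0.0229). The call of Eif2ak2 was lost without SFPQ-ABL1 line 1 or 3 or BCR-ABL1 line 3 (adjusted p 0.0505 to 0.0743) and in the exon sums (adjusted p = 0.0818). Of the IRF cofactors, Irf2bp1 was lower (-0.66 ± 0.14, adjusted p = 0.00317) and Irf2bpl higher (0.50 ± 0.13, adjusted p = 0.0121) in BCR-ABL1 than in MSCV lines. Between the fusions, in SFPQ-ABL1 against BCR-ABL1, these cofactors had 0.61 ± 0.14 (adjusted p = 0.00694) and -0.52 ± 0.13 (adjusted p = 0.0126), both lost in the exon sums (adjusted p = 0.0945 and 0.0549). The 10 tested interferon-inducible GTPases had Gbp7 called higher in SFPQ-ABL1 than in BCR-ABL1 lines (log2 fold change 0.73 ± 0.18, adjusted p = 0.0107). Between the fusions 26.0% of all genes were called in either direction. None of the 10 was called by edgeR in either comparison with MSCV. Of all genes 32.1% were called there in BCR-ABL1 and 1.79% in SFPQ-ABL1. An unadjusted p under 0.05 was found for 3 of the 10 in each comparison with MSCV. Of all 17197 genes, 7378 had such a p in BCR-ABL1 against MSCV and 3194 in SFPQ-ABL1 against MSCV.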

How the data were processed

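Raw read counts per gene, and per exon, were deposited by the authors for 12 libraries. Per the submitters' processing notes the build was mm10 and Subread and featureCounts were used. The sources used here do not give their versions, the strand setting, the annotation release or how reads that map to several places were treated. Symbols, coordinates and exon lengths came from GENCODE M21, and promoters from RefSeq on GRCm38.p6.

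Counts of 59355018 to 80616227 per library were filtered with filterByExpr, scaled by TMM and tested with edgeR 4.0.16 in R 4.3.3 (quasi-likelihood, all 12 libraries, group as the only term, Benjamini-Hochberg over 17197 genes, threshold 0.05). The scripts were tested on simulated data. Alternatives were DESeq2 1.42.0 and its size factors, limma 3.58.1 (voom), no scaling, no filter, the 8 libraries compared, a replicate block, exon counts summed per gene, and each library left out. Levels are CPM, and CPM per kilobase only between genes.

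Members and gene lists were chosen with earlier results of these data known. Named pathway genes are up to 4 called genes per list and comparison by smallest adjusted p. The cell type markers, Il10rb, Dtx3l and, against MSCV, Nlrc5 were named outside that rule after their values were seen. Some genes are not reported here.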

Additional observations from a re-analysis of the deposited data

Results flagged for a closer look

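Single lines stood apart from the other 3 of their group for 9 members, in 107 groups of 4 lines examined. The cutoff is set for about 1 group of 20 if values are normally distributed, which CPM need not be. The rule was not applied to all genes, so the count cannot be set against chance. In the SFPQ-ABL1 group the lines apart were Ifnar2 in line 1 (13.3 CPM, the others 15.99 to 16.48), Oas1a in line 2 (16.7 CPM, the others 18.9 to 19.3) and Usp18 in line 2 (4.35 CPM, the others 0.348 to 0.621). In the BCR-ABL1 group they were Irf5 in line 3 (11.7 CPM, the others 12.5 to 12.7) and, in line 4, Mx1 (3.58 CPM, the others 0.418 to 0.753), Rsad2 (0.759 CPM, the others 0.0152 to 0.0685) and Ifit3 (0.496 CPM, the others 0 to 0.0759). In the MSCV group they were Dhx58 in line 4 (4.48 CPM, the others 2.33 to 2.50) and Oas3 in line 2 (13.1 CPM, the others 7.47 to 8.09).

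For 6 members the 2 fusions differed from each other by edgeR's test, their fitted log2 fold changes against MSCV had opposite signs, and at least 1 of these was called. It was that of BCR-ABL1 for all 6, and for Ifnar2 that of SFPQ-ABL1 too. The share of all genes that meet this rule was not counted. Against MSCV the SFPQ-ABL1 values of Ifngr1 (0.32 ± 0.29), Ifngr2 (-0.18 ± 0.18) and Parp14 (0.16 ± 0.16) were near their standard errors. The signs of these values are uncertain, and that of Parp14 was -0.042 in the exon sums. Those of Oas2 (-0.92 ± 0.23) and Mx1 (-3.29 ± 1.13) were larger and not called by edgeR. In SFPQ-ABL1 against BCR-ABL1 lines the log2 fold changes of the 6 members were 1.47 for Ifngr1, 0.69 for Parp14, -0.77 for Ifnar2, -0.96 for Ifngr2, -1.61 for Oas2 and -6.45 for Mx1. Of these, Ifnar2 and Mx1 are also among the genes with a line apart.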

How the results depend on the processing

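Over 20 alternatives, 9 of 15 member calls in BCR-ABL1 against MSCV, 0 of 2 in SFPQ-ABL1 against MSCV and 9 of 15 in SFPQ-ABL1 against BCR-ABL1 held wherever the gene was tested, and no called value changed sign. The counts against MSCV for SFPQ-ABL1 depended most on the fit, and their causes were not tested. Of 308 genes called there, DESeq2 made 1131, the fit of 8 libraries 110, the replicate block 726, exon sums 157, and leaving out 1 library 33 to 467. Members lower in that comparison (2) numbered 9, 1, 6, 0 and 0 to 4 in the same order, and 1 without scaling factors. Pathway genes higher there (1) numbered 2 with DESeq2, 0 with 8 libraries, 2 with the block and 0 to 2 with a library left out. Pathway genes lower there (3) numbered 6 with no filter, 6 with DESeq2, 6 with the block, 1 in exon sums and 0 to 4 with a library left out. Members higher in BCR-ABL1 against MSCV (4) numbered 7 with DESeq2, 7 with the block, 2 in exon sums and 2 to 7 with a library left out. In SFPQ-ABL1 against BCR-ABL1, exon sums gave 4 members higher (8) and 4 lower (7) and 2618 of 4471 calls over all genes, and leaving out a library gave 4 to 9 members higher. In the fit of only the 8 libraries compared, the calls of Ifnar2, Socs1 and Shisa5 in SFPQ-ABL1 against MSCV (adjusted p 0.0841, 0.0599 and 0.0841), of Irf1, Gbp2 and Ptpn2 in SFPQ-ABL1 against BCR-ABL1 (0.0661, 0.0589 and 0.0550) and of Ikbke in BCR-ABL1 against MSCV (0.0545) were lost. Tapbp in SFPQ-ABL1 against MSCV was lost without scaling factors (0.0600) and, with Shisa5, in the exon sums (0.0716 and 0.0900).

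Without scaling factors the share of calls that were higher was 64.8% against 45.5% with them in SFPQ-ABL1 against MSCV (36.8% with limma-voom), and 61.9% against 50.7% in SFPQ-ABL1 against BCR-ABL1. The replicate numbers were not taken to pair the lines: correlations of same-numbered lines ran from -0.0063 to 0.385 in 12 pairs, and 7 were over 0.1. In all, 6 of 12 lines correlated best with their own number. The lines numbered 4 had 0.268 in BCR-ABL1 against MSCV, 0.385 in SFPQ-ABL1 against MSCV and 0.346 between the fusions. A part shared by number was not tested. With the block, Oas2 (adjusted p = 0.0493) and Oas3 (adjusted p = 0.00843) were called lower in SFPQ-ABL1 than in MSCV lines, and Usp18 in SFPQ-ABL1 than in BCR-ABL1 lines (adjusted p = 0.0399). With under 5 counts in a group, as for Ifih1, Rtp4 and Mx1 in SFPQ-ABL1, depth limits any statement on level.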

Other observations

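Interferon-inducible proteasome subunits replace constitutive subunits in the same catalytic positions, PSMB8 for PSMB5, PSMB9 for PSMB6 and PSMB10 for PSMB7. Within a library their ratio per kilobase of exon does not depend on how libraries are scaled to each other. Its absolute size depends on the joined annotated exon lengths, which are the same for all libraries. These ratios, and that of the interferon gamma receptor chains, were chosen after the data were seen, with the levels of Psmb8, Psmb9, Ifngr1 and Ifngr2 already known. The 12 tests were two-sided exact permutation tests of 4 against 4 lines, for which 70 arrangements give 0.0286 as the smallest p (0.0490 after Benjamini-Hochberg adjustment over the 12). That adjusted value depends on how many of the 12 reach the smallest p, and some ratios were chosen with separated levels known. The p-values of the ratios are therefore a description.

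Psmb8 over Psmb5 was 0.930 ± 0.193 in SFPQ-ABL1, 0.585 ± 0.113 in BCR-ABL1 and 1.23 ± 0.220 in MSCV lines (SD, n = 4 each). The constitutive gene Psmb5 averaged 36.4, 36.5 and 37.9 CPM in the same order, so this ratio largely repeats the Psmb8 levels given above. The BCR-ABL1 lines again lay apart from the other 2 groups, which is no independent result, while SFPQ-ABL1 overlapped MSCV lines (exact p = 0.114, adjusted 0.171).

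Psmb9 over Psmb6 was 0.245 ± 0.0516, 0.188 ± 0.0385 and 0.323 ± 0.0663 in SFPQ-ABL1, BCR-ABL1 and MSCV lines. It separated BCR-ABL1 from MSCV lines (smallest exact p), while SFPQ-ABL1 against BCR-ABL1 gave an exact p of 0.143 (adjusted 0.172). Psmb10 over Psmb7 was 0.676 ± 0.0781, 0.480 ± 0.0672 and 0.634 ± 0.0388 in the same order. It separated BCR-ABL1 from both other groups (smallest exact p in both). Psmb7 itself was higher in BCR-ABL1 than in MSCV lines (log2 fold change 0.35 ± 0.11, adjusted p = 0.0265 by edgeR), and Psmb10 there had -0.06 ± 0.14 (adjusted p = 0.784). The mean log2 difference of their ratio in that comparison was -0.41.

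Ifngr1 over Ifngr2 was 4.79 ± 2.59 in SFPQ-ABL1, 0.873 ± 0.199 in BCR-ABL1 and 3.29 ± 1.27 in MSCV lines. The 4 BCR-ABL1 lines ran from 0.633 to 1.12, and the lowest line of the other groups, MSCV line 1, was at 1.77. This separation follows from the levels of both genes given above and is no independent result. SFPQ-ABL1 and MSCV lines overlapped (exact p = 0.371, adjusted 0.405).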
